A study of Mus musculus with 90 samples.

Results

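Whole quadriceps muscle was compared with whole heart in uninjured, sedentary mice. The comparison took 6 of the 90 libraries of the series, chosen by their labels, with earlier results of these data known. They were the 3 quadriceps libraries and the 3 heart libraries of the WT genotype. The labels call this genotype PdgfraCre.pos_Piezo1WT. These mice carry a Cre recombinase driven by the Pdgfra promoter, which is active in stromal cells, and intact Piezo1 alleles, so that no allele is floxed in either tissue. Both groups carry the treatment label SED (sedentary). The titles of the heart libraries also read d0 of CTX (cardiotoxin, a venom toxin that destroys muscle fibres), which here stands for hearts of uninjured mice. The muscle libraries are labelled only as muscle, and the series' design text names the dissected muscle as Qd, read here as quadriceps. The hearts were perfused and the muscle is not described as perfused. The design text places the tissues in separate cohorts. No age is given for either cohort. Tissue was frozen and homogenized in TRIzol, and 2 ng of RNA went into each polyA library. Libraries are named by their label numbers, 1 to 3 for quadriceps and 2 to 4 for heart. No label states that the libraries of a group came from different mice, so p-values measure the spread between libraries, which may be technical.

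Skeletal and cardiac muscle are both striated and contract by the same sliding filaments, but many parts of the contractile apparatus are made from different genes of the same family in each. Skeletal fibres are multinucleate, are driven by motor nerves and release calcium through a direct mechanical link between membrane channel and store. Heart muscle is built from single cells joined end to end, beats on its own rhythm, uses calcium entry to trigger calcium release, and draws most of its energy from fatty acids.

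Depth differed between the tissues. Quadriceps libraries held 6939741 to 7883104 counts, and heart libraries held 27925309 to 35915860. The 50 genes with the most counts took 51.6% to 53.2% of a quadriceps library and 32.7% to 33.7% of a heart library, and mitochondrially encoded genes took 6.11% to 6.54% and 11.0% to 12.9%. The TMM scaling factors (edgeR's correction for such differences in makeup) were accordingly 0.785 to 0.812 in quadriceps and 1.23 to 1.27 in heart. The first principal component held 91.1% of the variance and separated the tissues. Tissue, cohort, perfusion and depth go together in this design and cannot be told apart. In whole tissue, fewer cells of a type and less RNA per cell cannot be told apart either. Levels are given in CPM, counts relative to library size, on the TMM scale, as mean ± SD of 3 libraries. To be called, a gene needed an adjusted p under 0.05 in edgeR's quasi-likelihood test and a difference of at least 4-fold. Log2 differences are quadriceps minus heart.

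The genes that define the labels separated the tissues completely. Myh4, the myosin heavy chain of the fastest skeletal fibres (ENSMUSG00000057003.12, chr11:67238029-67260446 in mm10, plus strand), had 48594, 50656 and 47211 CPM in quadriceps libraries 1, 2 and 3, from 273295, 312946 and 269739 counts. It had 0 counts in each heart library, so its level was at least 1983220.0-fold higher in quadriceps (adjusted p = 2.63e-19), taking 3 counts over the heart libraries as the floor. Myh6, the main myosin heavy chain of the adult mouse heart (ENSMUSG00000040752.16, chr14:54941921-54966927, minus strand), had 22381, 21827 and 20562 CPM in heart libraries 2, 3 and 4. In quadriceps it had 6, 22 and 3 counts, or 1.07, 3.56 and 0.525 CPM, a log2 difference of -13.58 (SE 0.51, adjusted p = 4.28e-05). Of 10 skeletal fibre markers all 10 were called higher in quadriceps, and of 10 cardiomyocyte markers 9 were called higher in heart. The tenth cardiomyocyte marker was Actc1, cardiac actin, described with the thin filament.

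Of 15093 genes tested, 869 were called higher in quadriceps (5.76%) and 1095 higher in heart (7.26%), or 13.0% in all. Without the fold limit, 3842 genes (25.5%) were higher in quadriceps and 4197 (27.8%) higher in heart. Counts of list members below are to be read against these shares over all tested genes. The median log2 difference of all tested genes was -0.06. Scaling by library size alone, with no TMM factor, moved that median to -0.70 and the calls to 617 higher in quadriceps and 1909 higher in heart, so small differences depend on the scaling. The groups did not overlap in 1958 of the 1964 called genes, compared with 61.4% of all tested genes. In the matching libraries of mice with floxed Piezo1 (PdgfraCre.pos_Piezo1FLOXED, 3 quadriceps and 3 heart), 5.78% of 15219 genes were called higher in quadriceps and 7.08% higher in heart, 12.9% in all. There, 705 of the 869 genes called higher in quadriceps were called again (81.1% of the WT calls and 80.2% of the floxed calls). For genes called higher in heart this held for 797 (72.8% and 74.0%), and 0 genes were called in opposite directions. The floxed libraries come from the same cohorts and have like depths. The repeat therefore cannot tell tissue from cohort, perfusion or depth. The tissue difference itself was called different between the genotypes in 5 of 16470 genes (0.0304%, 972 at an unadjusted p under 0.05).

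**Figure D1:**
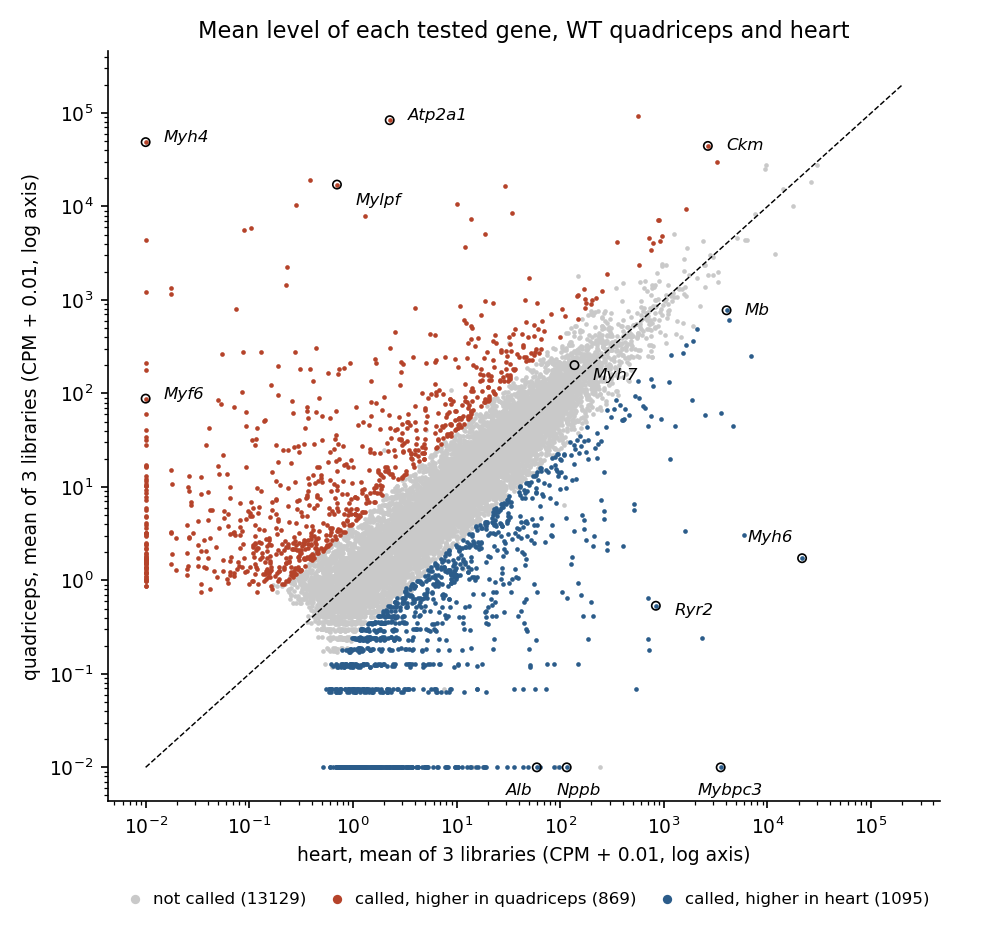
Mean level of each of the 15093 tested genes in WT heart (horizontal, CPM + 0.01, log axis) and WT quadriceps (vertical, same scale), with 1 point per gene and the dashed line marking equal levels. Points on the left edge are genes with 0 counts in every heart library, such as Myh4 and Myf6, and points on the bottom edge are genes with 0 counts in every quadriceps library, such as Mybpc3 and Nppb.

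Some genes had no read in one of the tissues. Of the called genes, 71 had 0 counts in all hearts and 187 had 0 counts in all quadriceps libraries. Such genes passed the filter through the other tissue alone, so counts of calls in lists that hold them say little by themselves. The limit that a count of 0 allows was not the same: 3 counts over the group correspond to 0.0246 CPM in heart and 0.171 CPM in quadriceps, since the hearts were sequenced more deeply. These floors cover counting error only.

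The myosin heavy chains form the motor of the thick filament and set its speed. Counts were divided by exon length to compare the 10 genes with each other. In quadriceps, Myh4 made up 87.7, 88.9 and 86.4% of the myosin heavy chain signal, Myh1 (fast, type IIx) 9.45, 8.95 and 11.7%, and Myh2 (fast, type IIa) 2.53, 1.82 and 1.71%. Myh7, the slow and beta-cardiac chain, made up 0.252% ± 0.0443. All 3 quadriceps libraries thus had the same order of fast chains. In heart, Myh6 made up 99.3, 99.3 and 99.3%, Myh7 0.493% ± 0.00601 and Myh7b 0.219% ± 0.0279. Myh7 was the chain that the tissues shared: it had 201 ± 37.9 CPM in quadriceps and 137 ± 4.60 CPM in heart, a log2 difference of 0.55 (adjusted p = 0.00125), which is under the 4-fold limit. On the TMM scale 7 chains, Myh7 among them, had an adjusted p under 0.05 and a higher level in quadriceps. By library size alone 6 did, without Myh7, so its difference depends on the scaling. Reads of Myh6 and Myh7, which lie next to each other and are very alike in sequence, may be split between them in an unknown way. Of 9 myosin heavy chains tested, 6 were called higher in quadriceps and 2 (Myh6 and Myh7b) higher in heart. The embryonic chain Myh3 (1.92 ± 0.773 CPM), the neonatal chain Myh8 (5.30 ± 0.738 CPM) and Myh13 (2.81 ± 0.602 CPM) were called higher in quadriceps at levels far below Myh4. Myh3 had 0 counts in every heart library.

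Thick and thin filament partners followed the same division. Mylpf, the regulatory light chain of fast fibres, had 16416, 16709.5 and 18336 CPM in quadriceps and 0.425, 0.622 and 1.03 CPM in heart (log2 14.56, SE 0.35, adjusted p = 3.94e-06). Its ventricular counterpart Myl2 had 53.3, 51.5 and 31.0 CPM in quadriceps and 4691, 4452 and 4734 CPM in heart (log2 -6.67, SE 0.26, adjusted p = 1.51e-05). Neither gene had overlapping groups. Mylk2, the kinase that phosphorylates skeletal light chains, was 12676-fold higher in quadriceps, and the cardiac kinase Mylk3 was 3109-fold higher in heart. Mybpc3, cardiac myosin-binding protein C, had 3729, 3466 and 3420.2 CPM in heart and 0 counts in quadriceps, at least 20659-fold higher in heart (adjusted p = 9.00e-17). Mybpc2, its fast skeletal relative, had 8505 ± 654 CPM in quadriceps and 34.2 ± 6.22 CPM in heart, and Mybpc1, the slow skeletal relative, had 2232 ± 127 and 0.223 ± 0.188 CPM. Mybpc2 was therefore present at a low level in every heart, while Mybpc1 stayed under 1 CPM there.

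The troponins, which carry the calcium switch of the thin filament, were exchanged subunit by subunit. The fast skeletal subunits Tnnt3, Tnni2 and Tnnc2 had 19139.8 ± 808, 7879 ± 429.9 and 1216 ± 49.1 CPM in quadriceps, against 0.374 ± 0.208 and 1.30 ± 0.604 CPM for the former pair in heart and 0 counts for Tnnc2. The cardiac subunits Tnnt2 and Tnni3 had 5917 ± 112 and 2360.0 ± 55.7 CPM in heart and 3.02 ± 0.500 and 0.230 ± 0.104 CPM in quadriceps. Tnnc1, which serves the heart and slow skeletal fibres, kept 67.9, 65.7 and 44.5 CPM in quadriceps against 2558, 2535 and 2452 CPM in heart (log2 -5.40, adjusted p = 3.75e-08). The slow skeletal subunits Tnnt1 and Tnni1 were also called higher in quadriceps, at 37.0 ± 7.23 against 8.36 ± 1.33 CPM and 54.1 ± 14.8 against 0.585 ± 0.689 CPM.

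Actin was divided less sharply. Acta1, skeletal actin, was the most abundant thin filament gene in quadriceps at 85747, 96729.7 and 94727 CPM, and it still had 461, 638 and 605 CPM in the hearts (log2 7.35, adjusted p = 2.42e-06). Actc1, cardiac actin, had 3488, 1769 and 4114 CPM in quadriceps libraries 1, 2 and 3 and 11153, 11847 and 12114 CPM in heart libraries 2, 3 and 4. Each heart was above each quadriceps library, but the quadriceps libraries ranged over more than a factor of 2, and the log2 difference of -1.91 (SE 0.36, adjusted p = 0.0130) stayed under the 4-fold limit. Neb, the giant ruler protein of skeletal thin filaments, was 1055-fold higher in quadriceps (10726 ± 914 against 10.2 ± 3.33 CPM), and its short cardiac relative Nebl was 230.1-fold higher in heart. Of the leiomodins, which nucleate thin filaments, Lmod2 was called higher in heart and Lmod3 was not called: Lmod3 had 144 ± 15.9 and 87.4 ± 3.43 CPM, and Lmod2 10.4 ± 3.83 and 50.5 ± 7.18 CPM, in quadriceps and heart. Over the 20 thin filament genes, 9 were called higher in quadriceps and 5 higher in heart, with a median log2 of 1.52.

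Among 40 genes of the Z-disc, the M-band and titin's partners, 17 were called higher in quadriceps and 5 higher in heart. Actn3, the alpha-actinin of fast fibres, had 10320.1 ± 860.4 CPM in quadriceps and 0.274 ± 0.376 CPM in heart (log2 15.30, SE 0.79, adjusted p = 1.38e-04). Actn2, the form found in both muscles, had 1849.6 ± 257 and 2984 ± 135 CPM and was not called. Myoz1, a fast-fibre partner of calcineurin at the Z-disc, had 4192, 4856 and 4238 CPM in quadriceps and 0 counts in heart, while Myoz2 was 9.44-fold higher in heart and still at 69.9 ± 6.88 CPM in quadriceps. Other genes higher in quadriceps were Mybph (3604-fold), Myoz3 (1754-fold) and the stretch-responsive Ankrd2 (196-fold). Higher in heart, beside Mybpc3 and Myoz2, were Fhl2 (479-fold), Ankrd1 (91.0-fold) and Csrp3 (28.4-fold). The large scaffold genes differed less: titin (Ttn) had a log2 difference of 1.52, myomesin 1 (Myom1) of 0.38 and desmin (Des) of 0.86, and none of these was called.

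**Figure D2:**
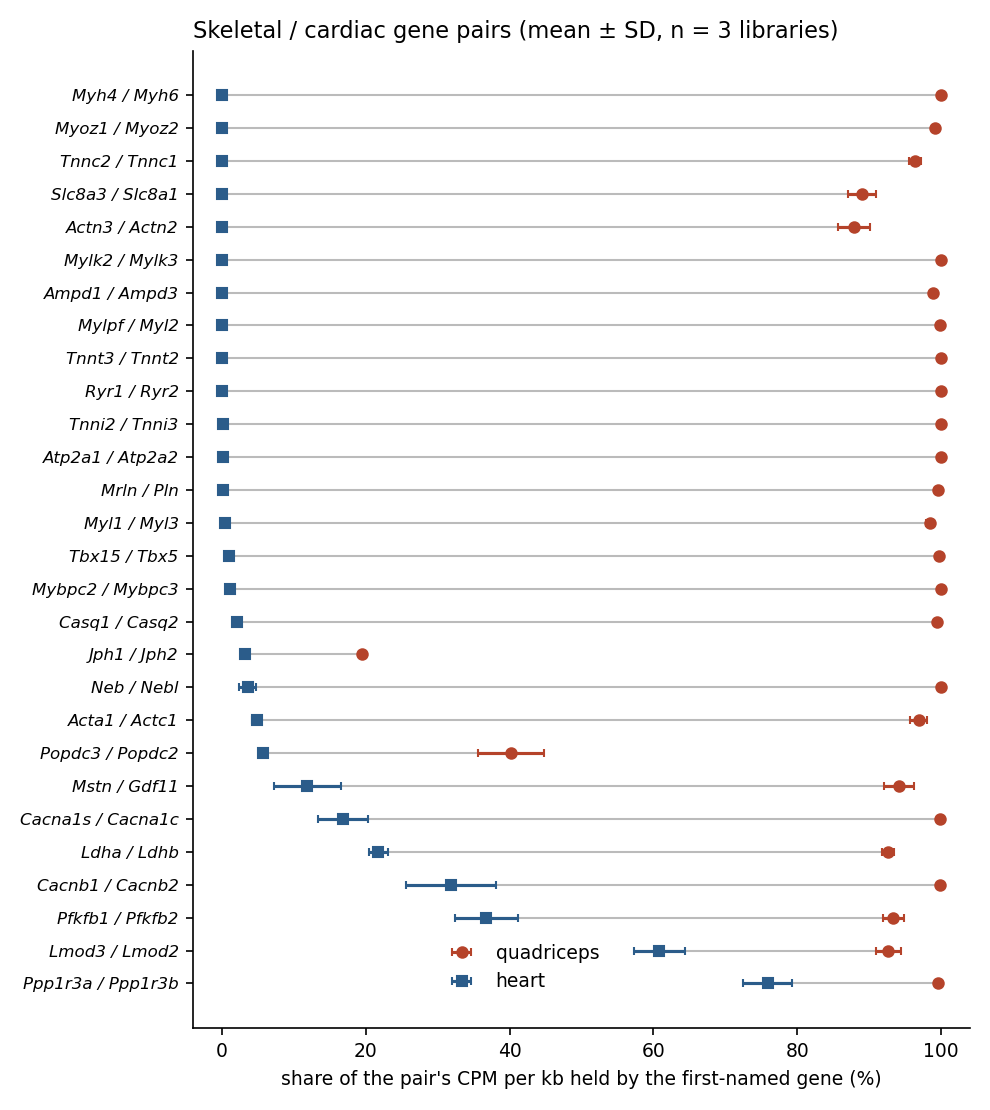
Share of the first-named (skeletal) gene in the summed CPM per kb of exon of 28 skeletal and cardiac gene pairs, mean ± SD of 3 libraries in quadriceps (circles) and heart (squares). The share was higher in every quadriceps library than in every heart library for all 28 pairs, and Jph1, Popdc3, Lmod3 and Ppp1r3a did not pass from a majority to a minority.

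The division was summarized over 28 pairs of related skeletal and cardiac genes, as the skeletal gene's share of the pair's CPM per kb. The pairs were chosen for their known tissue preference, with earlier results of these data known. Their direction is therefore a check and not a finding. The skeletal gene held more than 90% of the pair in quadriceps in 24 pairs and less than 10% in heart in 21 pairs, and did both in 17. Both genes were called in opposite directions in 20 pairs. In the pair of Mstn and Gdf11 both genes were called higher in quadriceps (Gdf11 8.68 ± 2.11 against 1.83 ± 0.503 CPM). Jph2, listed as a cardiac gene, was also higher in quadriceps (105 ± 2.37 against 56.0 ± 1.74 CPM, log2 0.91) but was not called. For these pairs a lower skeletal share in heart does not mean that the cardiac gene was higher there. Some pairs were exchanged only in part. The skeletal gene had the minority in quadriceps too for the junctophilins Jph1 and Jph2, which tie the cell membrane to the calcium store (Jph1 19.5% ± 0.367 in quadriceps and 3.16% ± 0.546 in heart). The same was true of Popdc3 against Popdc2, cyclic AMP-binding membrane proteins (40.2% ± 4.61 and 5.74% ± 0.130). In the other direction, the skeletal gene kept the majority in heart for Lmod3 against Lmod2 (60.8% ± 3.54) and Ppp1r3a against Ppp1r3b (75.9% ± 3.43). Shares depend on the exon lengths used: without dividing by length, 33 of the 56 shares moved by more than 1 SD, by at most 19.3 percentage points.

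Calcium handling genes were called in both directions, 17 of 37 higher in quadriceps and 8 higher in heart, against 5.76% and 7.26% of all tested genes. Ryr1, the calcium release channel of skeletal muscle, had 1429, 1499 and 1457 CPM in quadriceps and 0.0283, 0.551 and 0.0670 CPM in heart, and its cardiac counterpart Ryr2 had 0.889, 0.162 and 0.525 and 854, 861 and 799.7 CPM. Atp2a1 (SERCA1), the calcium pump of fast fibres, had 77364, 92187 and 81848 CPM in quadriceps, the second highest level among the genes named here, and 2.86, 3.33 and 0.581 CPM in heart (log2 15.20, SE 0.90, adjusted p = 2.34e-04). Atp2a2 (SERCA2), the cardiac and slow-fibre pump, had 61.6 ± 11.1 against 3586 ± 312 CPM. None of these 4 genes had overlapping groups. Pln, phospholamban, the pump's cardiac inhibitor, was 1090.0-fold higher in heart, and Mrln, myoregulin, its skeletal counterpart, was 150.2-fold higher in quadriceps. Sarcolipin (Sln), a further inhibitor, is described with the atrial genes.

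The voltage sensor Cacna1s, its partner Stac3 and the subunits Cacnb1 and Cacng1 were 79.8-fold, 605-fold, 65.2-fold and 5978-fold higher in quadriceps. The cardiac calcium channel Cacna1c and its subunit Cacnb2 were 48.8-fold and 40.7-fold higher in heart. Calsequestrins, which store calcium, were again split, with Casq1 at 7359 ± 278 against 13.9 ± 3.17 CPM and Casq2 at 53.7 ± 13.7 against 948 ± 33.5 CPM. Pvalb, parvalbumin, the calcium buffer of fast fibres, had 5878, 5314 and 5524 CPM in quadriceps and 0.0283, 0.144 and 0.0670 CPM in heart, 69959-fold higher in quadriceps. The sodium-calcium exchanger was Slc8a1 in heart (130.4 ± 4.75 against 11.8 ± 1.49 CPM), and Slc8a3 was read in quadriceps only (27.8 ± 6.87 CPM, at least 1129-fold higher). Cacna2d2 was the weakest call of the list (adjusted p = 0.0185) and sat at 1.41 ± 0.897 CPM in heart.

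Genes of electrical excitation leaned to the heart. Of 34 sodium, potassium, chloride and pacemaker (HCN) channels and connexins, 15 were called higher in heart and 7 higher in quadriceps, with a median log2 of -1.71. Scn4a, the skeletal sodium channel, had 391, 409 and 404 CPM in quadriceps and 30.7, 33.7 and 32.5 CPM in heart. Its groups did not overlap. Kcnj5, a subunit of the acetylcholine-gated potassium channel, had 86.4, 93.1 and 79.4 CPM in heart and 0 counts in quadriceps (at least 504-fold higher in heart). Its partner Kcnj3 was 44.8-fold higher in heart. Kcnip2, which shapes the fast outward potassium current, was 263-fold higher, and Kcnk3 was 763-fold, with a 95% counting interval of 211 to 6300.5, higher in heart. The connexin Gja1, which couples heart cells, had 45.4 ± 6.01 against 699.7 ± 53.1 CPM. Hcn4, the pacemaker channel, was 5.21-fold higher in heart at only 5.09 ± 0.984 CPM. In quadriceps, Clcn1, the chloride channel that keeps skeletal fibres at rest, was 31.7-fold higher, and the fast potassium channels Kcnc1 and Kcnc4 were 89.5-fold and 548-fold higher.

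Neuromuscular junction genes, which build the contact between motor nerve and fibre, were called in 1 direction only: 6 of 13 higher in quadriceps and 0 higher in heart. At an adjusted p under 0.05 alone, 9 were higher in quadriceps and 2 higher in heart. The summed level of the 14 listed genes was 588 to 607 CPM in quadriceps and 659 to 710 CPM in heart. The acetylcholine receptor subunits Chrna1, Chrnd and Chrne had 28.1 ± 2.38, 5.13 ± 0.328 and 16.2 ± 2.71 CPM in quadriceps. In heart the former pair had 0.171 ± 0.198 and 0.0521 ± 0.0903 CPM, and Chrne had 0 counts. Musk, the kinase that organizes the junction, had 64.4 ± 9.01 against 0.676 ± 0.0571 CPM, and Ache, acetylcholinesterase, 60.0 ± 2.25 against 3.37 ± 1.28 CPM.

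Autonomic signalling genes were called mostly in the other direction, 10 of 32 higher in heart and 4 higher in quadriceps, against 7.26% and 5.76% of all tested genes. Chrm2, the muscarinic receptor through which the vagus slows the heart, was 661-fold, with a 95% counting interval of 183 to 5456, higher in heart (75.5 ± 11.5 CPM). Adra1b was 277-fold, with a 95% counting interval of 49.7 to 10927, and Adrb1, the main cardiac beta receptor, was 17.3-fold, with a 95% counting interval of 4.80 to 143, higher in heart. Adrb1 counts were low, at 2.04, 1.89 and 2.01 CPM in the hearts. The enzymes of cyclic AMP signalling were split, with Adcy5 9.85-fold and Pde3a 13.5-fold higher in heart and Adcy2 419-fold higher in quadriceps. Adrb3, the beta receptor of fat cells, was 23.1-fold higher in quadriceps, where it had 2.42 ± 1.19 CPM.

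Of 32 secreted factors, 6 were called higher in quadriceps and 6 higher in heart, and 8 and 14 had an adjusted p under 0.05. Over all tested genes the shares were 5.76% and 7.26% called, and 25.5% and 27.8% at that adjusted p. By library size alone the calls were 5 and 10. Nppb, brain natriuretic peptide, a hormone that lowers blood pressure and is made by heart muscle, had 136, 90.0 and 121 CPM in heart and 0 counts in quadriceps (at least 675-fold higher, adjusted p = 2.57e-08). Corin, the protease that activates natriuretic peptides, was 342-fold higher in heart. Mstn, myostatin, which limits skeletal muscle growth, had 94.6, 113 and 80.9 CPM in quadriceps and 0.311, 0.0718 and 0.156 CPM in heart (log2 9.08, SE 0.25, adjusted p = 2.76e-12). Its close relative Gdf11 had 8.68 ± 2.11 against 1.83 ± 0.503 CPM, and Fst, follistatin, an inhibitor of both, 4.09 ± 1.78 against 0.500 ± 0.0415 CPM. Ostn, osteocrin, a hormone of muscle and bone, was 44.5-fold higher in quadriceps. Fgf1 was 5.73-fold higher in heart, where Fgf16 and Nrg1 also had more reads (3.04 ± 0.945 and 1.64 ± 0.369 CPM, with a total of 1 count in quadriceps for each). Fndc5, the precursor of irisin, was lower in quadriceps (21.5 ± 2.01 against 85.1 ± 2.02 CPM, log2 -1.98), close to but under the 4-fold limit.

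Transcription factors split by lineage. Of 22 factors of heart development, 15 were called higher in heart and 2 higher in quadriceps. Factors with 0 counts in quadriceps passed the filter through heart alone, so this count says little by itself. Nkx2-5 had 37.5, 35.4 and 33.6 CPM and Irx4, the ventricular factor, 17.3, 19.3 and 18.5 CPM in heart, and both had 0 counts in quadriceps (at least 207-fold and at least 107-fold higher). Gata4 was 292-fold, with a 95% counting interval of 99.8 to 1414, and Tbx20 was 1001-fold, with a 95% counting interval of 179.7 to 39554, higher in heart. Tbx5, a factor of the heart and forelimb, had 1.03 ± 0.192 CPM in quadriceps against 34.1 ± 5.02 CPM in heart, and Myocd, myocardin, was 183-fold higher in heart. Mef2c, which also acts in skeletal muscle development, was one called higher in quadriceps (381 ± 28.0 against 65.1 ± 4.17 CPM).

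Of 27 factors of the skeletal lineage, 17 were called higher in quadriceps and 1, Prdm16, higher in heart (3.82 ± 0.760 against 19.2 ± 0.978 CPM). Factors with 0 counts in heart passed the filter through quadriceps alone, so this count too says little by itself. The myogenic regulators Myf6, Myog and Myf5 had 88.0 ± 6.55, 10.8 ± 2.82 and 1.52 ± 0.609 CPM in quadriceps and 0 counts in every heart. Myf6, which is kept on in mature fibres, was at least 3575-fold higher in quadriceps (adjusted p = 1.26e-13), and Myod1 had 32.9 ± 5.21 against 0.106 ± 0.126 CPM. Pax7, the factor of satellite cells (the stem cells of skeletal muscle), had 15, 7 and 7 counts in the quadriceps libraries and 0 in each heart. Tbx15, a factor of fast fibres and limb tissue, had 272, 283 and 285 CPM in quadriceps and 0.311, 0.239 and 0.246 CPM in heart (log2 10.03, SE 0.13).

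Hox genes record position along the body. Of 39 listed, 11 had enough reads for a test, and 10 of these were called higher in quadriceps and 0 in heart. Hoxc10 had 45.2, 37.2 and 40.8 CPM, Hoxa9 16.5, 14.2 and 20.7 CPM and Hoxa10 17.2, 17.0 and 16.1 CPM in quadriceps, and all 3 had 0 counts in every heart (at least 1668-fold, at least 696-fold and at least 682-fold higher). The summed level of the list was 105 to 112 CPM in the quadriceps libraries and 2.01 to 2.25 CPM in the hearts. Because the genes that passed the filter did so through quadriceps, their count says little by itself. Of 6 limb patterning genes outside the Hox clusters, 1 was called in each direction (median log2 -1.07), and by library size alone 1 was called higher in quadriceps and 3 higher in heart. Meis2 was the one called higher in heart (35.2-fold, 0.616 ± 0.403 against 21.7 ± 1.15 CPM).

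Promoters of genes from both sides are shown as examples and do not stand for their groups. The windows are the 250 bases before the RefSeq start site (GRCm38.p6, which is mm10). Capitals mark matches, on either strand, to the MEF2 consensus motif, CAGCTG (an E-box of the kind bound by myogenic regulators), GATAA (GATA factors) and TATAAA (the TATA box).
Myh4, chr11:67237562-67237811, plus strand: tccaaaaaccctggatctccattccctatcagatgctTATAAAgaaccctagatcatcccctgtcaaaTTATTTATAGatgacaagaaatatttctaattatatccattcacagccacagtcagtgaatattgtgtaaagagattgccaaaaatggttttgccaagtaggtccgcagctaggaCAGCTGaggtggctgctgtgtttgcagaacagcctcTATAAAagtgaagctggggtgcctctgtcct
Mylpf, chr7:127211358-127211607, plus strand: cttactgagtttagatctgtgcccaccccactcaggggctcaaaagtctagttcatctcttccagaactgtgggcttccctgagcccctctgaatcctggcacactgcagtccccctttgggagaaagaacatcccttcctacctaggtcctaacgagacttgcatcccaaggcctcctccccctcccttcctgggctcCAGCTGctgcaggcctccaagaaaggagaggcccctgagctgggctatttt
Mybpc3, chr2:91117894-91118143, plus strand: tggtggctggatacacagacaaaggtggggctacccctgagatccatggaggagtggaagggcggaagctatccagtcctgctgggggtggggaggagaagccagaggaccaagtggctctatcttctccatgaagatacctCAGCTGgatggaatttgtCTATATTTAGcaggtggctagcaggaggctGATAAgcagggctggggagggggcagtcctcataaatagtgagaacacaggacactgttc
Nppb, chr4:147985650-147985899, plus strand: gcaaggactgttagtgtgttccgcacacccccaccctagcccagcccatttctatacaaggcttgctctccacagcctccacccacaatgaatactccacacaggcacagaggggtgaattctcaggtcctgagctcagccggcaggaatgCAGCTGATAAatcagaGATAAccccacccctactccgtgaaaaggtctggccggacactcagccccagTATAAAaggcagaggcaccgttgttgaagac
The fast-fibre genes Myh4 and Mylpf each held 1 E-box, and Myh4 also held 1 MEF2 match, which overlapped 1 of its 3 TATAAA matches. Mybpc3 held 1 match to each of the MEF2, E-box and GATA motifs, and Nppb held 2 GATA matches, of which 1 overlapped its E-box. Windows of several other named genes, among them Myh6, Tnni3, Ryr2, Dsp, Tnnc2 and Mybpc2, held no match to any of these motifs. A symbol match gave a window for 590 of the 869 genes called higher in quadriceps, 723 of the 1095 called higher in heart and 10984 of the 15093 tested. Shares are of genes with a window. Some genes had several windows, and a gene counted if any of them held a match. The E-box was found in 19.0% of the genes called higher in quadriceps and 16.6% of those called higher in heart. Over all tested genes the share was 14.7%. The MEF2 consensus was found in 6.10, 2.90 and 2.32%. It replaced a first form of the motif, CTA and TAG with any 4 bases between them, after the shares of that form, 6.61, 4.01 and 3.59%, had been seen. GATAA was found in 21.7, 23.1 and 17.9%, and TATAAA in 14.2, 13.0 and 8.67%. These are matches of letters in short windows, given as a description and without a test.

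Glycolysis, which makes ATP quickly from sugar, was called in both directions. Of 34 glycolysis and lactate genes, 11 were called higher in quadriceps and 5 higher in heart (median log2 0.89), but scaling by library size alone gave 7 and 8 (median 0.24). Aldoa, aldolase, had 28899, 32085 and 29816 CPM in quadriceps and 3196, 3377 and 3265 CPM in heart (log2 3.21, SE 0.05, adjusted p = 6.42e-16). Eno3, Pgam2 and Tpi1, later steps of the pathway, were 5.67-fold, 6.39-fold and 4.70-fold higher in quadriceps. The lactate dehydrogenases were exchanged: Ldha, the form that favours making lactate, had 7169 ± 147 against 890.0 ± 46.7 CPM, and Ldhb, which favours using it, 269.8 ± 27.5 against 1522 ± 43.8 CPM. Slc16a3, the lactate exporter of fast fibres, was 179-fold higher in quadriceps. Both glycerol-phosphate dehydrogenases, Gpd1 and Gpd2, which carry electrons from the cytosol to mitochondria, were higher in quadriceps (15.8-fold and 24.3-fold).

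Isoforms were exchanged along the pathway as well. The phosphofructokinase subunit Pfkm was 5.07-fold higher in quadriceps and Pfkl 9.22-fold higher in heart. Of the enzymes that set the regulator fructose 2,6-bisphosphate, Pfkfb3 (422 ± 132 against 6.18 ± 1.38 CPM) and Pfkfb1 were higher in quadriceps and Pfkfb2 in heart. Hk1 was 8.79-fold higher in heart, whereas Hk2 had 349.7 ± 3.44 and 307 ± 3.72 CPM and was not called. For glycogen, Pygm, muscle glycogen phosphorylase, was 8.07-fold higher in quadriceps, and the kinase subunits that activate it, Phka1, Phkb and Phkg1, were 21.9-fold, 9.53-fold and 38.2-fold higher. Pygb, the brain form, had 19.8 ± 2.98 CPM in quadriceps and 1158 ± 80.0 CPM in heart (log2 -5.87, SE 0.11, adjusted p = 3.10e-15), and the targeting subunit Ppp1r3b was 22.4-fold higher in heart. In all, 6 of 22 glycogen genes were called higher in quadriceps and 3 in heart.

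Fatty acid genes were higher in heart almost as a group, though mostly by less than 4-fold. Of 37, 32 had an adjusted p under 0.05 and a higher level in heart, where 27.8% of all tested genes did, and 1 had a higher level in quadriceps. The median log2 was -1.29, and 5 passed the 4-fold limit, against 18 (median -1.93) by library size alone. The 5 were Lpl (615 ± 52.5 against 4274 ± 157 CPM), which releases fatty acids from blood lipids, Fabp3 (4.25-fold), which carries them in the cell, Dgat2 (5.34-fold), Acot1 (12.8-fold) and Ucp2 (4.26-fold). The uptake receptor Cd36 (log2 -1.88) and the oxidation enzymes Acadm (log2 -1.59) and Hadha (log2 -1.43) were below the limit.

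Genes of the mitochondrial core differed mostly by less than 4-fold between the tissues. Of 77 nuclear respiratory chain genes, 1 was called (Slc25a5, an adenine nucleotide carrier, 4.84-fold higher in heart), with a median log2 of -0.25. Of 28 tricarboxylic acid cycle genes, 2 were called, both higher in heart: Idh2 (5.32-fold) and the aspartate-glutamate carrier Slc25a13 (1.79 ± 0.601 against 129.6 ± 9.10 CPM). At an adjusted p under 0.05 alone, 19 were higher in heart and 3 higher in quadriceps, against 27.8% and 25.5% of all tested genes. Of the 13 mitochondrially encoded protein genes, mt-Co2 and mt-Atp6 were called higher in quadriceps, but at 28.7 and 23.1 CPM, far below the share of the genome as a whole, and such genes have near-copies in the nuclear genome that can split reads. For these lists the scaling matters: by library size alone, 75 of the 77 respiratory chain genes had an adjusted p under 0.05 and a higher level in heart, against 44 on the TMM scale. For the 28 cycle genes these counts were 26 and 19. Over all 15093 tested genes they were 8552 and 4197, so the shift was not particular to these lists.

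Of 19 creatine, adenylate and oxygen store genes, which buffer energy, 5 were called higher in quadriceps and 1 higher in heart (median log2 0.35). By library size alone the calls were 3 and 4 (median -0.29), so the direction of the list depends on the scaling. Ckm, muscle creatine kinase, had 41907, 47373 and 44109.6 CPM in quadriceps and 2759.6, 2673 and 2552 CPM in heart (log2 4.06, SE 0.06, adjusted p = 1.01e-16), while its mitochondrial partner Ckmt2 had 3034 ± 358 and 2777 ± 221 CPM. Ampd1, the AMP deaminase of skeletal muscle, had 1077, 1156 and 1207 CPM in quadriceps and a total of 1 count in heart. Car3, carbonic anhydrase 3, was 306-fold higher in quadriceps. Its heart level was 0.112% of its level in the WT liver libraries, a share described with the liver genes. Mb, myoglobin, the oxygen store, was the member called higher in heart, at 929.6, 675 and 721 CPM in quadriceps and 3939.6, 4173 and 3992 CPM in heart (log2 -2.38). Of the regulators, the AMP kinase subunits Prkag3 and Prkab2 were 78.1-fold and 8.82-fold higher in quadriceps, and Ppara, the receptor that turns on fatty acid oxidation, was 5.37-fold higher in heart. Ppargc1a, which drives mitochondrial growth, had 45.5 ± 2.74 against 127 ± 3.13 CPM and was not called.

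**Figure D3:**
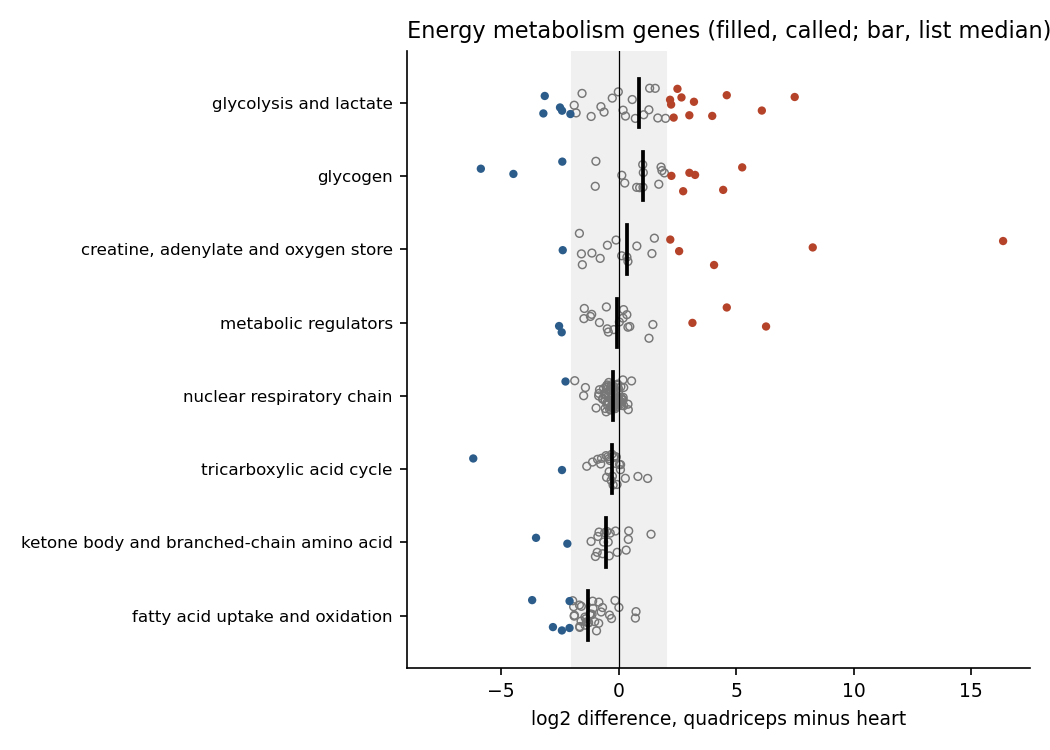
Log2 difference (quadriceps minus heart) of each tested gene of 8 energy metabolism lists, with filled points for called genes, open points for genes not called and bars at the list medians. The shaded band is a difference of less than 4-fold, and Ampd1, with a total of 1 count in heart, is drawn at its fitted value at the far right. Fatty acid genes sit mostly left of 0 inside the band (median -1.29), glycolysis and glycogen genes spread to both sides (medians 0.89 and 1.04), and respiratory chain genes gather around -0.25.

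Intercalated discs join heart cells end to end and couple them electrically. Of 15 intercalated disc genes, 8 were called higher in heart and 0 higher in quadriceps. Dsp, desmoplakin, which ties desmosomes to the cytoskeleton, had 542, 567 and 509 CPM in heart and a total of 1 count in quadriceps, a ratio of 9451-fold, with a 95% counting interval of 1696 to 373292. Lrrc10, a heart-restricted scaffold, and Dsg2, a desmosomal cadherin, had 97.5 ± 14.2 and 43.9 ± 6.99 CPM in heart and 0 counts in quadriceps. Pkp2, Dsc2 and Cdh2 were 142-fold, 129-fold and 111-fold higher in heart. The dystrophin complex, which anchors both kinds of fibre to the matrix, differed by smaller folds. Of 24 genes, only Capn3, a protease of skeletal muscle, was called (53.7-fold higher in quadriceps), where 5.76% of all tested genes were. At an adjusted p under 0.05 alone, 14 were higher in quadriceps and 9 higher in heart, against 25.5% and 27.8% of all tested genes. By library size alone 1 gene of this list was called higher in quadriceps and 2 higher in heart. Dystrophin itself (Dmd) had 131 ± 3.12 and 98.7 ± 2.66 CPM, and Sgca had a log2 difference of 1.02.

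Markers of other cells in the tissues differed too, and their part in the results above was not tested. Epicardial and mesothelial markers, from the lining of the heart surface, were called higher in heart in 8 of 9 tested genes. The 10 listed genes summed to 37.2 to 45.0 CPM in the hearts and 2.27 to 2.67 CPM in quadriceps. Wt1 and Upk3b had 6.45 ± 1.59 and 9.66 ± 2.22 CPM in heart and 0 counts in quadriceps. Tested members of this list without reads in quadriceps passed the filter through heart alone, so the count of 8 says little by itself. Satellite cell markers were called higher in quadriceps in 5 of 10 genes, among them Cdh15 (33.9 ± 1.60 CPM, 0 counts in heart) and Calcr (2.07 ± 0.545 CPM). Pax7, Myf5 and Cdh15 had 0 counts in every heart and passed the filter through quadriceps alone, so this count says little by itself. At an adjusted p under 0.05 alone, 7 satellite cell markers were higher in quadriceps and 2 higher in heart, against 25.5% and 27.8% of all tested genes. Adipocyte markers were called higher in quadriceps in 6 of 8 genes (Adipoq 32.4 ± 4.69 against 0.668 ± 0.452 CPM, Cfd 215 ± 16.4 against 2.92 ± 1.71 CPM), while Cidea was 17.9-fold higher in heart. Tendon and cartilage markers were called higher in quadriceps in 5 of 8 genes, for example Tnmd (42.3 ± 4.50 against 0.109 ± 0.0944 CPM) and Fmod (495 ± 54.1 against 14.2 ± 3.22 CPM).

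Nerve markers differed in kind. Mbp, a myelin gene, was 9.70-fold higher in quadriceps, and Dbh, which makes noradrenaline in sympathetic nerves, had 4.73, 3.45 and 2.99 CPM in heart and 0 counts in quadriceps. Of 15 stromal markers, Col1a1 (1117 ± 313 against 147 ± 13.4 CPM), Col1a2 and Thbs4 were called higher in quadriceps, and Tcf21, a factor of cardiac fibroblasts, was 46.9-fold, with a 95% counting interval of 8.41 to 1851, higher in heart. Pdgfra, the gene whose promoter drives Cre in these mice, had 43.7, 39.7 and 50.6 CPM in quadriceps and 50.2, 51.5 and 42.4 CPM in heart (log2 -0.11, adjusted p = 0.477). None of 15 endothelial markers was called, but 14 had an adjusted p under 0.05 and a higher level in heart, where 27.8% of all tested genes did (Kdr 99.9 ± 6.70 against 289 ± 30.0 CPM, Pecam1 117 ± 9.88 against 209 ± 9.39 CPM). The same held for 8 of 11 macrophage markers, of which none was called. By library size alone 2 endothelial markers and 1 macrophage marker were called higher in heart. Of the lymphocyte markers, only Ighm and Cd3e had enough reads for a test, and both were higher in quadriceps (Ighm 321 ± 47.9 against 14.9 ± 1.35 CPM).

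**Figure D4:**
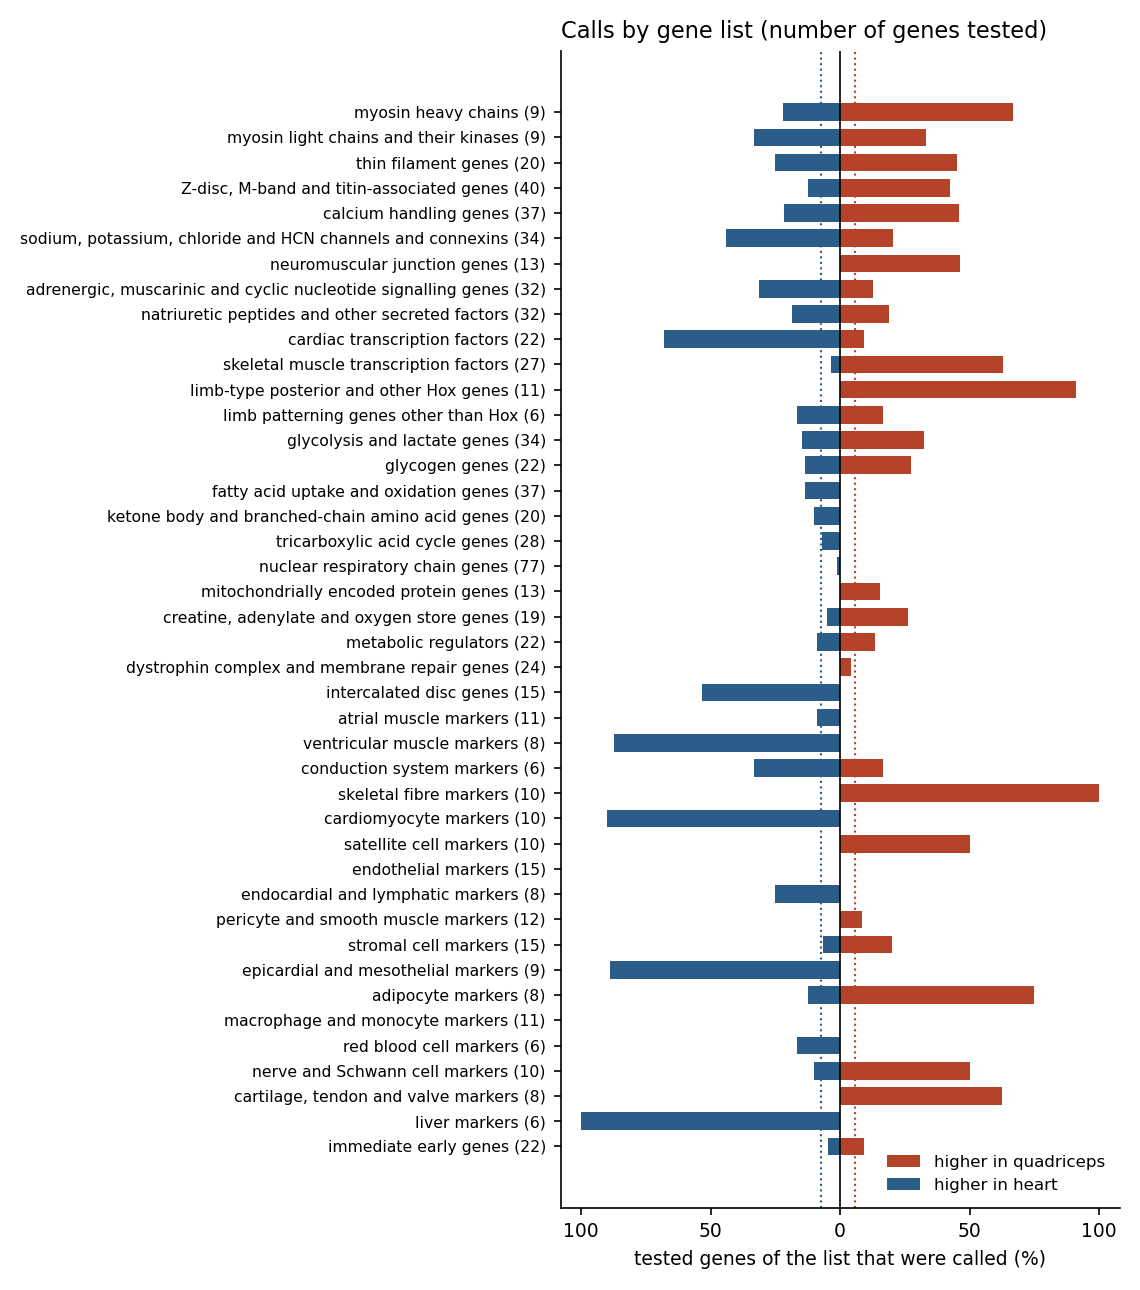
Share of the tested genes of each list that were called higher in quadriceps (right) or higher in heart (left), with the number of genes tested in brackets and lists of fewer than 5 tested genes left out. Dotted lines mark the shares over all tested genes, 5.76% and 7.26%. Skeletal fibre markers, Hox genes and adipocyte markers reach furthest right, and liver, cardiomyocyte, epicardial and ventricular markers furthest left.

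Each of 8 ventricular markers varied by less than a factor of 2 between the 3 hearts, and several atrial markers varied by more. Of these 8 ventricular markers 7 were called higher in heart. Of 11 atrial markers tested, 1 (Kcnj3) was called, and heart library 3 stood apart. Myl7, the atrial light chain, had 33.9, 218 and 20.3 CPM in heart libraries 2, 3 and 4 and 0 counts in quadriceps, and Nppa, atrial natriuretic peptide, had 97.8, 538 and 83.9 CPM and 0 counts. For Myl7, Nppa, Myl4, Sln and Mybphl, library 3 was 5.93 to 11.0 times the mean of libraries 2 and 4. With all 3 hearts the adjusted p was 0.168 for Myl7, 0.0969 for Nppa and 0.0632 for Myl4. Without heart library 3, an alternative added after this was seen, the adjusted p was 6.30e-07, 7.26e-12 and 4.85e-08, with Myl7 at least 158-fold and Nppa at least 530.3-fold higher in heart and Myl4 at a log2 difference of -2.49. Sln, sarcolipin, had a log2 difference of -1.83 with library 3 and 0.29 without it, and was not called either way. In the hearts of floxed mice Myl7 had 105, 111 and 129.9 CPM. The part that dissection or cell makeup had in this was not tested.

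Transcripts of liver genes were read in every heart library. Alb, albumin, had 3149, 1570 and 2311 counts in heart libraries 2, 3 and 4, or 89.1, 37.6 and 51.6 CPM, and 0 counts in quadriceps. All 6 liver markers were called higher in heart, and Alb is among the 15 genes that lead the heart side by size. On a common scale with the WT liver libraries of the series, 75 genes with at least 1000 CPM in liver and under 1 CPM in quadriceps stood in heart at 0.0421% to 0.372% of their liver level, with a median of 0.0722%. In turn, 5 genes with at least 1000 CPM in heart and under 10 CPM in quadriceps stood in liver at 0.258% to 0.373% of their heart level. Of the 1095 genes called higher in heart, 92 had a heart level at or under 1% of the liver level, and 824 had a higher level in heart than in liver. Leaving out all genes at or under 1%, an alternative added after this was seen, left 1829 called genes of 1964. Of these, 826 were higher in quadriceps and 1003 higher in heart. How these transcripts came to be in the heart libraries was not tested.

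**Figure D5:**
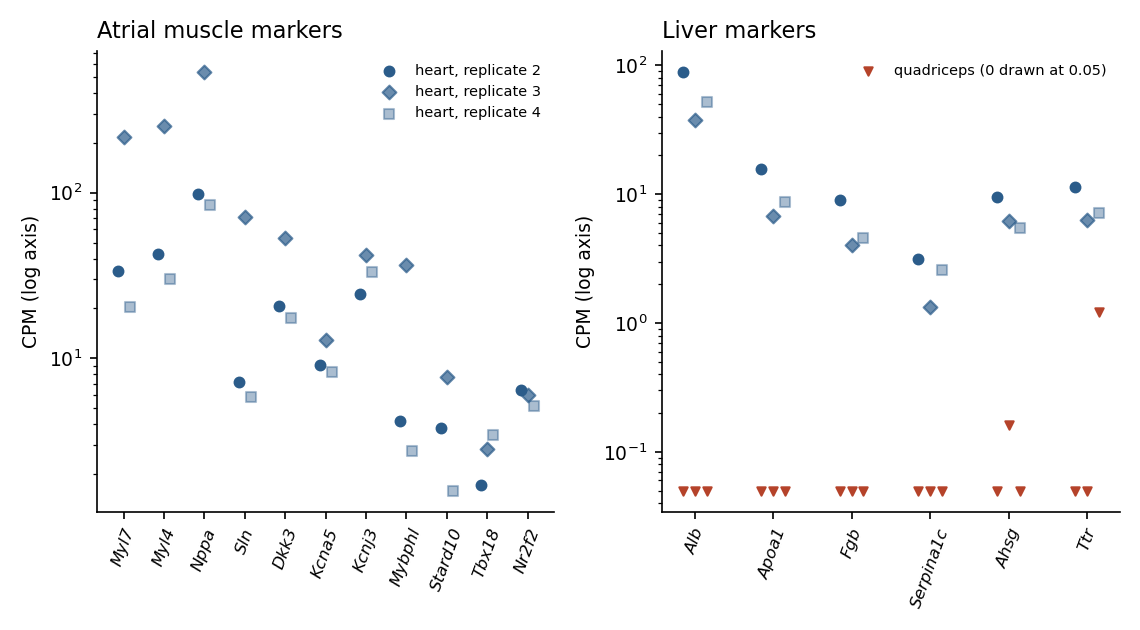
Levels (CPM, log axis) in single libraries, with WT heart replicates 2, 3 and 4 as circles, diamonds and squares. On the left, heart replicate 3 lies above replicates 2 and 4 for Myl7, Myl4, Nppa, Sln and Mybphl; on the right, the 6 liver markers lie above 1 CPM in all 3 hearts while quadriceps (triangles, counts of 0 drawn at 0.05) has 0 counts of Alb, Apoa1, Fgb and Serpina1c.

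Some leading genes belonged to no list. Higher in heart were Rnf207 (69.8, 65.5 and 57.7 CPM and 0 counts in quadriceps), a regulator of cardiac potassium channels, Tnni3k (160.3, 147 and 138 CPM), a kinase that binds troponin I, and Mov10l1 (71.0, 72.6 and 77.0 CPM), known for its part in silencing transposons in the germ line, whose gene also gives a heart transcript. Ptgds, prostaglandin D synthase, had 444, 1081 and 612 CPM in the hearts, a wide spread, and 0, 1 and 2 counts in quadriceps. Higher in quadriceps were Nctc1 (212, 233 and 184 CPM), a non-coding transcript, and Kera (55.8, 55.2 and 71.8 CPM), keratocan, a proteoglycan of cornea and tendon, both with 0 counts in heart.

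Piezo1, the mechanically gated channel that the series is about (chr8:122481698-122551329), did not separate the tissues. It had 21.0, 10.0 and 10.7 CPM in quadriceps and 20.3, 15.7 and 14.9 CPM in heart, the groups overlapped, and the log2 difference of -0.29 (SE 0.25) had an adjusted p of 0.350. Quadriceps library 1 was the highest of the 6.

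Neighbouring genes limit some of these values. Without knowledge of strand use, reads of overlapping genes cannot be told apart for Myh1 and Myhas, Myh6 and Gm49130, Pln and Cep85l, Mybph and Adora1, or Hoxc10 and Hoxc5, nor for the partners of other named genes that overlap an annotated gene.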

How the data were processed

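Whole-tissue polyA RNA was measured in 3 quadriceps and 3 heart libraries of WT mice, grouped by their labels, with the matching 6 libraries of floxed mice as a second set and 4 WT liver libraries as levels of reference. Per the submitters' processing notes, STAR 2.7.3a aligned the reads to mm10 and featureCounts (version not stated) counted them. The authors deposited 1 table of raw counts, whole numbers for 55011 gene symbols in 90 libraries, which was taken unchanged. Not given in the sources used here are the annotation they used, strandedness and the treatment of multi-mapping reads. Coordinates and exon lengths came from GENCODE M21 (mm10), which held 96.4% of the symbols.

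Counts were tested in R 4.3.3 with edgeR 4.0.16 (filterByExpr with a minimum count of 10, TMM scaling, quasi-likelihood test, Benjamini-Hochberg adjustment over all genes tested), each genotype by itself, and the interaction of genotype and tissue in 1 fit of both. DESeq2 1.42.0 was an alternative. A gene was called at an adjusted p under 0.05 and a fold of at least 4. Of a gene with 0 counts in a group, the fold is a lower bound from a floor of 3 counts over that group, and of one with 1 to 3 counts the ratio has a 95% counting interval. Deeper heart libraries give lower floors. Replicates differed by a chi-square of at least 4.63 per gene, more than sampling noise. Labels do not pair the libraries: same-numbered libraries come from separate cohorts, and the correlation of their deviations was -0.0266 and -0.0188. On simulated counts of 14758 genes, the test called 40% of genes changed by log2 2 and 98% of those changed by log2 3 for this comparison, with 0.0412% of unchanged genes called. A change of log2 2 lies at the 4-fold limit itself, and 86% of such genes passed the adjusted p. Only 50 genes were changed at each size, whereas 53.3% of genes had an adjusted p under 0.05 in the data. These rates need not hold for the data.

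The libraries, gene lists and pairs were chosen with earlier results of these data known. Named were all genes of the pairs and Piezo1, then per direction up to 15 called genes with the largest fold, at least 50 CPM and no overlap between groups, leaving out predicted, mitochondrial and sex-linked genes. Per list up to 5 called members per direction were added, those that go against the list's name, or, with none called, the 2 with the smallest p. Other list members were named after their values were seen, to show members that were not called. Results of some genes are not reported here, and pairs holding them were left out. The alternatives were other scalings, DESeq2, no filter, each library left out, thinned counts, other fold limits, left-out gene sets, 1 fit for both genotypes and a replicate block.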

Additional observations from a re-analysis of the deposited data

Results flagged for a closer look

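The difference between quadriceps and heart was compared between the genotypes, as floxed minus WT. Of 16470 genes tested jointly, 5 (0.0304%) had an adjusted p under 0.05 by edgeR, 972 had an unadjusted p under 0.05, and DESeq2 called 7. In all 5 the quadriceps levels of the genotypes were alike and the heart levels were low. St8sia5, a sialyltransferase, had an interaction of log2 -4.16 (adjusted p = 0.00132), with 0.0840 CPM in WT hearts and 1.42 CPM in floxed hearts. Mstn had -2.78 (adjusted p = 0.00410), with 0.180 and 1.05 CPM. Crym, a thyroid hormone-binding protein, had -4.51 (adjusted p = 0.0214), with 0.0174 and 0.463 CPM. Jsrp1, a partner of the skeletal calcium release machinery, had -1.80 (adjusted p = 0.0358), with 0.120 and 0.408 CPM. Sypl2, a membrane protein of the same machinery, went the other way at 1.92 (adjusted p = 0.0358), with 0.726 and 0.194 CPM. The 5 calls were not stable: leaving out heart library 4 of the WT mice left 0. Myh6 was also read in the 4 WT liver libraries, outside the comparison, at a mean of 51.6 CPM.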

How the results depend on the processing

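The count of 1964 called genes stayed within 1.5 times of that value under other scalings, DESeq2, no filter, thinned counts, 1 fit for both genotypes and each library left out (1637 to 2051 with 1 library left out). Without the fold limit the count of 8039 became 6956 to 7467 with 1 library left out. A test against a fold of 4 (glmTreat) called 1110 genes, a limit of 2-fold 4255 and a limit of 16-fold 801. In floxed mice, 1956 genes were called, 1586 to 1950 with 1 library left out, 1065 by glmTreat, 4128 at 2-fold and 778 at 16-fold. Scaling by library size alone split the calls 617 higher in quadriceps to 1909 higher in heart in WT and 627 to 1754 in floxed mice, against 869 to 1095 and 879 to 1077, and turned the sign of the medians of the creatine, dystrophin, stromal and sex-linked lists. The replicate block, on numbers that do not pair the libraries, gave 1910 calls in WT and 1901 in floxed mice. Against 5 interaction calls, library size alone and the block each gave 3 calls, no filter gave 40, and leaving out 1 library gave 0 to 12 (0 without WT heart 4, 10 without WT heart 3, 12 without floxed heart 2, 2 without any 1 of quadriceps WT 1, WT 2 or floxed 1, 2 and 3). The cause was not tested. Of 3564 values of named genes under these alternatives, 3533 kept their call, 24 in 14 genes lost it, 7 gained it and 0 changed direction. Levels under the floor of a tissue could not be read, and quadriceps, with fewer counts, has the higher floor.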

Other observations

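Genes of blood and of acute responses also varied. The 7 red blood cell markers listed summed to 135 to 182 CPM in quadriceps and 299 to 869.5 CPM in the perfused hearts. Of the 6 tested, 5 had an adjusted p under 0.05 with a higher level in heart, where 27.8% of all tested genes did. Hbb-bt, a beta globin, was the 1 called, and by library size alone 5 were. Of 22 immediate early genes, a list added after values were seen, 2 were called higher in quadriceps, the nuclear receptor Nr4a1 (235.0 ± 44.0 against 9.63 ± 2.43 CPM) and Gadd45b, and 1, Ier3, higher in heart. The best-known members of that list, Fos, Jun and Egr1, had adjusted p-values of 0.777, 0.572 and 0.134.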
